A study of Mus musculus with 9 samples.

Results

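The genes described here carry the interferon response and the presentation of antigen to T cells. There were 37, taken by name from a list of MHC class II, MHC class I and immunoproteasome genes and of interferon-induced genes. Of these, 33 had a probeset that names them alone, among 19938 genes so named on the array, and all 33 were bright enough to be tested beside 14953 genes in all. Isg15, Gbp2 and Igtp have probesets that name several genes, and no probeset was matched to Ifi44, so these 4 were not tested.

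The series measured gene expression in scrapings of the colon epithelium and, per its title, set responses that set in immediately on a diet with heme against delayed ones. All animals were male C57BL/6J mice of 9 to 11 weeks with no other genetic or drug treatment in the labels, and all began with 1 week of run-in on a control diet in which fat gave 40% of the energy. The control mice stayed on that diet and were killed on days 0, 2, 4, 7 and 14, and the heme mice ate it with 0.2 µmol heme per g and were killed on days 2, 4, 7 and 14. RNA of the 4 mice of a diet and day was pooled (3 mice for the control pool of day 2), and each of the 5 control and 4 heme pools was hybridised to 1 array. The spread between animals within a day was therefore not measured, and the replicates of a diet are its pools of different days. Values are log2 expression, and where 5 control and 4 heme values are listed they run in order of day.

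Interferons are secreted signals against infection. Type I interferons act through a complex that holds STAT2 and IRF9 on the ISRE motif of antiviral genes, and interferon-gamma acts on the GAS motif and raises IRF1. Nearly all cells show peptides of their own proteins on MHC class I: the proteasome cuts them, the TAP transporter carries them into the endoplasmic reticulum, and they are loaded there onto a heavy chain with beta-2 microglobulin. Interferon-gamma exchanges the 3 catalytic proteasome subunits for the immunoproteasome subunits Psmb8, Psmb9 and Psmb10. MHC class II shows peptides taken up from outside and is made mostly by macrophages, dendritic cells and B cells, and by intestinal epithelium under interferon-gamma.

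The labelled tissue was checked by its markers, and the mean over 12 colon epithelium markers lay between 11.96 and 12.02 log2 in every pool. Pools also differed in other cells. The 8 exocrine pancreas markers stood on average 2.90 and 3.43 log2 above their control mean in the control and heme pools of day 2, and the 8 smooth muscle markers 1.32 and 0.70 above it in those of day 7. The smooth muscle markers also stood low, at -0.96 and -1.05 in the control and heme pools of day 2 and at -0.86 in the heme pool of day 14. The leading counts and medians between the diets are given without the pools of day 2 and of day 7 too, and the part of these cells in the results was not tested. A scraping is a mixture, so fewer cells of a type and less RNA per cell cannot be told apart.

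Most of these genes had lower values on the heme diet, by small amounts, and 1 passed the test. The log2 difference between the diets was below 0 for 27 of the 33 and above 0 for 6, against 51% of all genes tested below 0, with a median of -0.18 against -0.00 over all genes tested. Psmb8 fell (adjusted p under 0.05 over all genes tested) and no member rose; 3.03% of the members were called lower, beside 0.0736% of all genes and 0.669% called in either direction. At an unadjusted p under 0.05, 15 members were lower (45.5%), beside 8.65% of all genes. In 9 members (27.3%) all 4 heme pools lay below all 5 control pools, beside 2.33% of all genes. These 9 were B2m, Tap2, Tapbp, Psmb8, Psmb9, Psmb10, Irf8, Ifit1 and Zbp1, so 6 of them belong to MHC class I and the immunoproteasome. Without both pools of day 2 this count was 11 (7.06% of all genes), and without both pools of day 7 it was 12 (4.03% of all genes). The members below 0 were then 27 and 28, and their median was -0.19 in both cases. At an unadjusted p under 0.05 in either direction there were 12 of 33 with either day left out, beside 2443 and 1567 of the 14953 genes tested. With all 9 pools there were 15 of 33 in either direction, beside 2547 of all genes (17%).

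**Figure D1:**
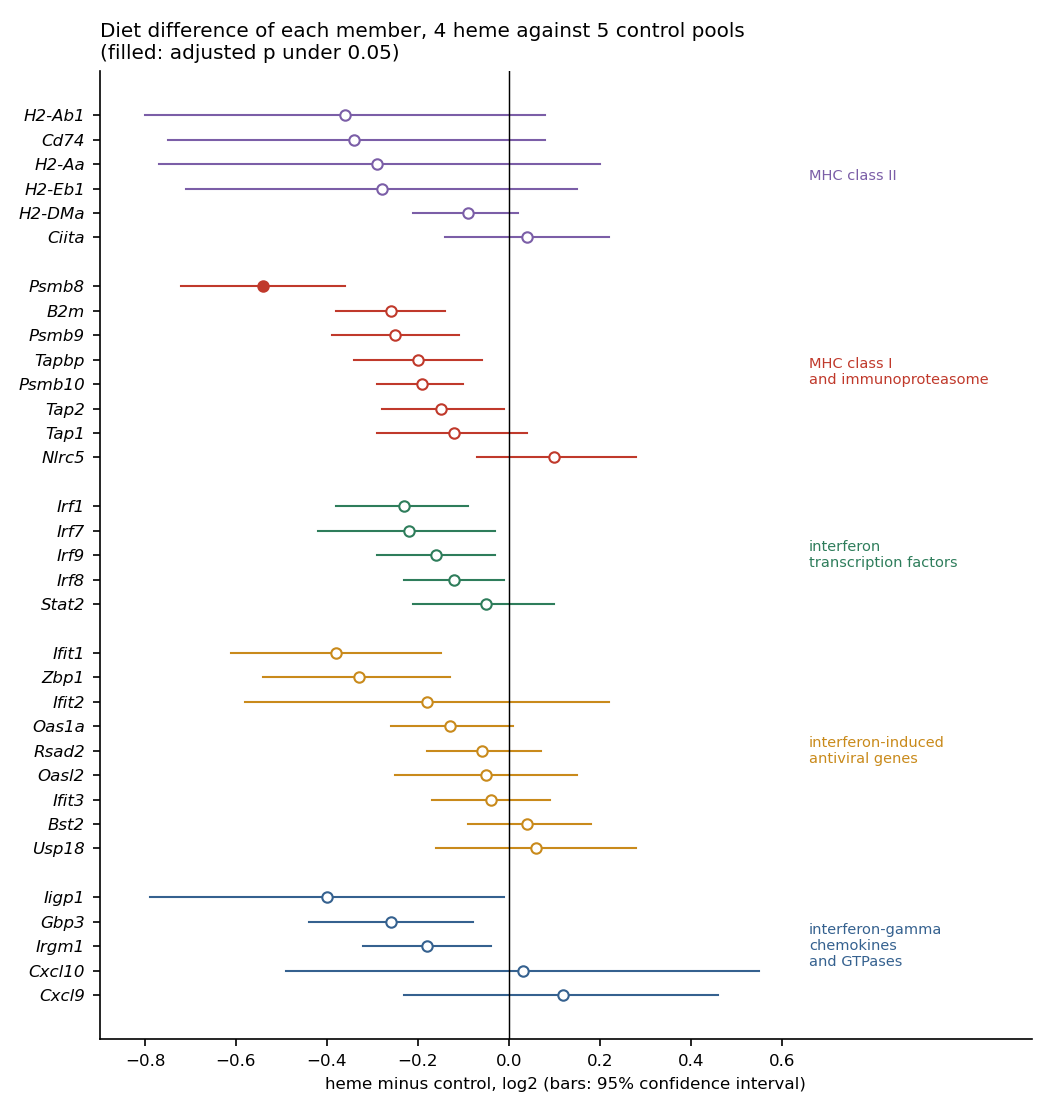
Log2 difference between 4 heme and 5 control pools for each of the 33 members (x axis), by role, with points for the fitted difference and bars for its 95% confidence interval. The filled point of Psmb8 at -0.54 is the one that passed the test, and the intervals of all 6 MHC class II genes include 0.

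The immunoproteasome and the class I loading genes held most of the members without overlap. Of 8 genes, 7 had a log2 difference below 0, with a median of -0.20, and 6 lay with all heme pools below all control pools. Psmb8, the interferon-induced subunit that takes the place of Psmb5 in the proteasome (probeset 10444258), stood at 7.56, 7.41, 7.41, 7.43 and 7.65 in the control pools and at 7.04, 7.13, 6.79 and 6.84 in the heme pools. The heme pools were low on every day and lowest on days 7 and 14. The means were 7.49 ± 0.11 (SD, n = 5) on control and 6.95 ± 0.16 (SD, n = 4) on heme, a 1.46-fold fall (log2 difference -0.54, SE 0.08, 95% interval -0.72 to -0.36, limma adjusted p = 0.0165). With the day as a block the difference was -0.53 and the call was lost (adjusted p = 0.0798). It was also lost without the control pool of day 0 (adjusted p = 0.0625), the control pool of day 4 (0.0532), the heme pool of day 7 (0.0629), the heme pool of day 14 (0.0618) or both pools of day 7 (0.132), with log2 differences between -0.56 and -0.49. Without both pools of day 2 it held (-0.59, adjusted p = 0.0413).

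The bases before the start of Psmb8 are shown because it is the member that passed the test. The stretch covers the 250 bases up to the RefSeq start (GRCm38.p6, chr17:34197945-34198194, plus strand, 5′ to 3′), and capitals mark the match to the GAS motif TTCNNNGAA, whose first base lies at -97 from the start.
Psmb8: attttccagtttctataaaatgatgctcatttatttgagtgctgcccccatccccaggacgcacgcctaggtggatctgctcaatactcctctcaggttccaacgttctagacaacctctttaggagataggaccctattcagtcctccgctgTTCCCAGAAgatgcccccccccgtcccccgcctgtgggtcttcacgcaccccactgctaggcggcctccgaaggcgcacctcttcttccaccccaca
In the windows of 250 bases before to 50 after the start, searched on both strands, the GAS motif was found for 7 of the 29 members in the RefSeq promoter table (24.1%) and for 9.55% of all 27025 genes there. The 7 were Psmb8, Irf1, Irf8, Ifit2, Oas1a, Bst2 and Igtp. The 6 tested members with the motif had a median log2 difference of -0.15 and the 19 without it one of -0.18, and this was not tested. A match is a description of letters and not a binding site.

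The other immunoproteasome subunits had smaller differences. Psmb9, which replaces Psmb6, stood at 8.18, 7.98, 7.97, 7.93 and 8.15 on control and at 7.74, 7.92, 7.75 and 7.78 on heme. Its groups did not overlap, though the heme pool of day 4 lay just under the lowest control pool (log2 difference -0.25, SE 0.06, adjusted p = 0.134). Psmb10, which replaces Psmb7, stood at 9.06, 9.03, 8.92, 8.99 and 9.13 on control and at 8.88, 8.87, 8.79 and 8.79 on heme. Again all heme pools were below all control pools (-0.19, SE 0.04, adjusted p = 0.104).

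The constitutive subunits that these replace had values on the other side of 0. Psmb5 stood at 8.72, 8.73, 8.73, 8.79 and 8.75 on control and at 8.66, 8.88, 8.90 and 9.13 on heme (log2 difference 0.15, adjusted p = 0.342). Psmb6 stood at 9.85, 9.72, 9.72, 9.94 and 9.88 on control and at 9.82, 9.88, 10.08 and 10.10 on heme (0.14, adjusted p = 0.318). Psmb7 stood at 9.70, 9.87, 9.86, 9.86 and 9.88 on control and at 9.71, 9.91, 9.97 and 10.08 on heme (0.09, adjusted p = 0.505). In all 3 the heme pool of day 14 was above every control pool and the heme pool of day 2 was not. On day 14 the heme pool differed from the control pool of that day by -0.81 for Psmb8 and 0.38 for Psmb5, by -0.37 for Psmb9 and 0.21 for Psmb6, and by -0.33 for Psmb10 and 0.20 for Psmb7. Of the 14 constitutive proteasome genes on a list, 13 were above 0, with a median log2 difference of 0.08, and 0 passed the test. Those with the smallest p were the alpha-ring subunits Psma3 (0.19, adjusted p = 0.156) and Psma6 (0.17, adjusted p = 0.209).

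**Figure D2:**
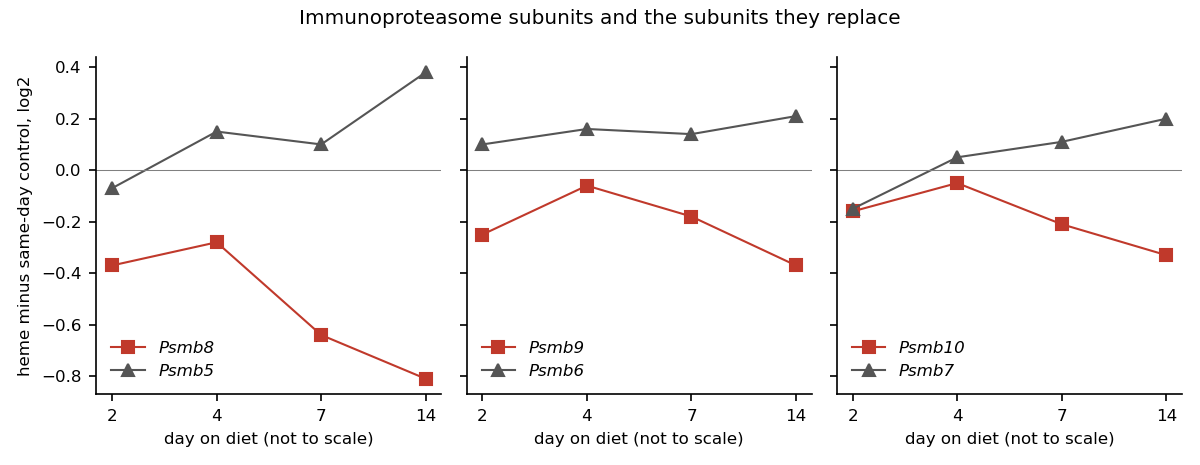
Heme minus same-day control pool in log2 (y axis) by day on diet, for each immunoproteasome subunit (red squares) and the constitutive subunit it replaces (grey triangles), 1 pair of pools per point. The red lines stay below 0 on all 4 days, from -0.37 on day 2 to -0.81 on day 14 for Psmb8, and the grey lines reach 0.38, 0.21 and 0.20 on day 14.

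B2m, the light chain of every MHC class I molecule, stood at 12.01, 12.02, 12.04, 11.98 and 12.14 on control and at 11.82, 11.92, 11.72 and 11.66 on heme. The groups did not overlap, and the heme pool of day 14 was the lowest (-0.26, SE 0.05, 95% interval -0.38 to -0.14, adjusted p = 0.0711). Leaving out the heme pool of day 4 brought it past the threshold (-0.31, adjusted p = 0.0306). Tapbp, or tapasin, which bridges the class I molecule to the TAP transporter, stood at 10.24, 10.19, 10.20, 10.23 and 10.16 on control and at 10.14, 10.13, 9.93 and 9.83 on heme. Its control pools spanned less than the gap that the heme pools of days 7 and 14 showed below them (-0.20, SE 0.06, adjusted p = 0.191). Of the transporter's subunits, Tap2 was at -0.15 without overlap (adjusted p = 0.27) and Tap1 at -0.12 with overlap (adjusted p = 0.387). The heme pool of day 4 was at 7.35 for Tap2, just under the lowest control pools at 7.36. Nlrc5, the transactivator of MHC class I genes, was at 0.10 (adjusted p = 0.491). It had 19 probesets, of which 17 were above the filter, and 12 of these were higher and 5 lower on heme, with differences from -0.17 to 0.16.

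The class I heavy chains H2-K1, H2-D1 and H2-T23 had no probeset that names them alone. Of the 8 other class I genes tested 0 passed, and their median was -0.02. The smallest p belonged to Erap1, which trims peptides in the endoplasmic reticulum (-0.13, adjusted p = 0.294), and Calr, the chaperone calreticulin (0.05, adjusted p = 0.547).

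**Figure D3:**
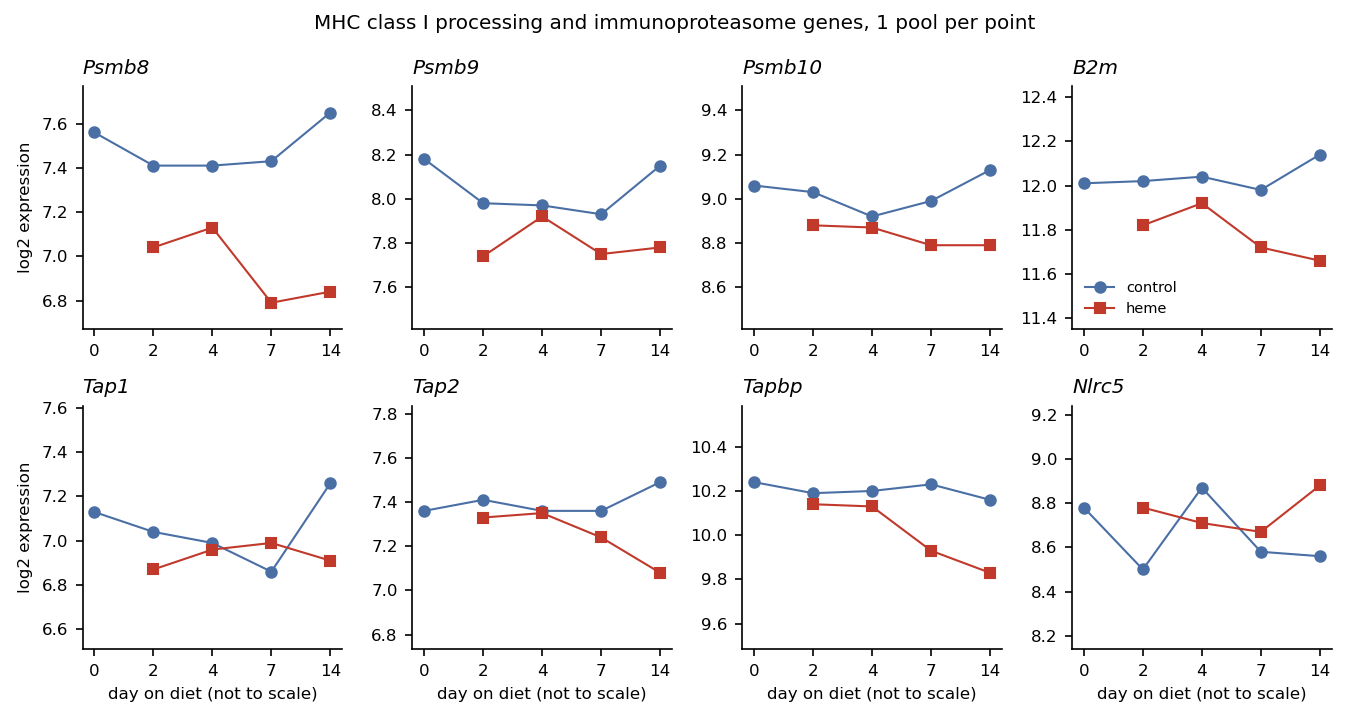
Log2 expression (y axis, a different range in each panel) of the 8 MHC class I and immunoproteasome members by day on diet, with 5 control pools in blue and 4 heme pools in red, 1 pool per point and no error bar since a diet and day has 1 pool. Psmb8 on heme lies between 6.79 and 7.13 against 7.41 to 7.65 on control, and Nlrc5 shows no separation.

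Over the 8 class I and immunoproteasome members the mean deviation from the control mean was -0.17, -0.12, -0.25 and -0.27 in the heme pools of days 2, 4, 7 and 14, against -0.07 to 0.08 in the control pools. The macrophage and dendritic markers were at -0.40, -0.16, 0.07 and 0.14 in the same heme pools. Heme minus same-day control was -0.11, -0.28, 0.13 and -0.16 for these markers. For the class I and immunoproteasome members it was -0.13, -0.10, -0.19 and -0.35. The T and NK cell markers were at -0.03, -0.08, -0.18 and -0.09 from their control mean in these heme pools. The epithelial markers were between 0.00 and 0.03 there. The 6 pan-leukocyte markers were at -0.51, -0.27, -0.09 and -0.12. Heme minus same-day control was -0.27, -0.31, -0.08 and -0.43 for the pan-leukocyte markers, below 0 on all 4 days as for class I. For the T and NK cell markers it was -0.02, -0.04, -0.23 and -0.07. Among the pan-leukocyte markers Ptprc, the CD45 antigen of all leukocytes, was at -0.34 (adjusted p = 0.0726), with all heme pools below all control pools. The part of leukocytes in the class I values was not tested.

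The pools of the MHC class II genes varied widely within each diet. Their median log2 difference was -0.29, 5 of 6 were below 0, and 0 passed the test or an unadjusted p under 0.05. The median was -0.20 without both pools of day 2, -0.11 without the heme pool of day 2, -0.18 without the control pool of day 14 and -0.42 without both pools of day 7. With all 9 pools it lay further from 0 than the median of class I (-0.20), and without both pools of day 2, or without the heme pool of that day, it lay nearer to 0 (class I -0.22 in both cases). H2-Ab1, the beta chain of the I-A molecule, stood at 8.91, 8.71, 9.24, 8.91 and 9.51 on control and at 8.16, 8.68, 8.99 and 8.97 on heme. The groups overlapped, and the heme pool of day 2 was the lowest of all (-0.36, 95% interval -0.80 to 0.08, adjusted p = 0.361). H2-Aa, the alpha chain, stood at 9.12, 8.81, 9.49, 9.09 and 9.69 on control and at 8.35, 8.91, 9.27 and 9.28 on heme (-0.29, adjusted p = 0.487). Cd74, the invariant chain that fills the class II groove until a peptide is loaded, stood at 8.41, 8.37, 8.73, 8.39 and 9.04 on control and at 7.73, 8.22, 8.59 and 8.47 on heme (-0.34, adjusted p = 0.368). In these 3 genes the control pools themselves ranged from their lowest value on day 2 to their highest on day 14. The heme pool was under the control pool of the same day on days 2, 4 and 14 and above it on day 7. H2-Eb1, the beta chain of I-E, was at -0.28 (adjusted p = 0.441).

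H2-DMa, part of the editor that exchanges the invariant chain fragment for peptide, stood at 5.76, 5.73, 5.73, 5.80 and 5.86 on control and at 5.71, 5.58, 5.71 and 5.74 on heme (-0.09, adjusted p = 0.37). Ciita, the master transactivator of class II genes, ranged from 5.70 to 6.06 over all pools and had a difference of 0.04 (adjusted p = 0.804). Its sign turned to -0.01 without the pools of day 7.

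Markers of the cells that carry most class II varied in a like way from pool to pool, and so did markers of fibroblasts and endothelium. The mean deviation of the 6 class II members was -0.09, -0.26, 0.12, -0.09 and 0.33 in the control pools and -0.60, -0.29, 0.02 and -0.00 in the heme pools. That of 15 macrophage and dendritic markers was -0.07, -0.30, 0.12, -0.05 and 0.30 on control and -0.40, -0.16, 0.07 and 0.14 on heme. In both lists the control pool of day 14 was the highest and the heme pool of day 2 the lowest. The 7 endothelial markers were also highest in that control pool (0.48) and lowest in that heme pool (-0.37). The 8 fibroblast markers were highest in the same control pool (0.47) and lowest in both pools of day 2 (-0.60). The B and plasma cell and the pan-leukocyte markers were highest in the control pool of day 14 too (0.17 and 0.31). Both were lowest in the heme pool of day 2 (-0.34 and -0.51). The T and NK cell and the smooth muscle markers were instead highest in the control pool of day 7 (0.06 and 1.32). Whether the lists differ in this was not tested. The macrophage and dendritic markers had a mean level of 6.19 to 6.79 on control and 6.08 to 6.63 on heme, with 14 of 15 below 0 in the diet comparison, a median of -0.10 and 0 called, and Xcr1 below the filter. The 9 B and plasma cell markers tested had mean levels of 6.52 to 6.86 on control and 6.36 to 6.76 on heme, with a median of -0.09 and 0 called. The 6 pan-leukocyte markers lay between 7.11 and 7.66 on control and between 6.84 and 7.26 on heme, with 6 of 6 below 0, a median of -0.21 and 0 called. Their part in the class II values was not tested.

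**Figure D4:**
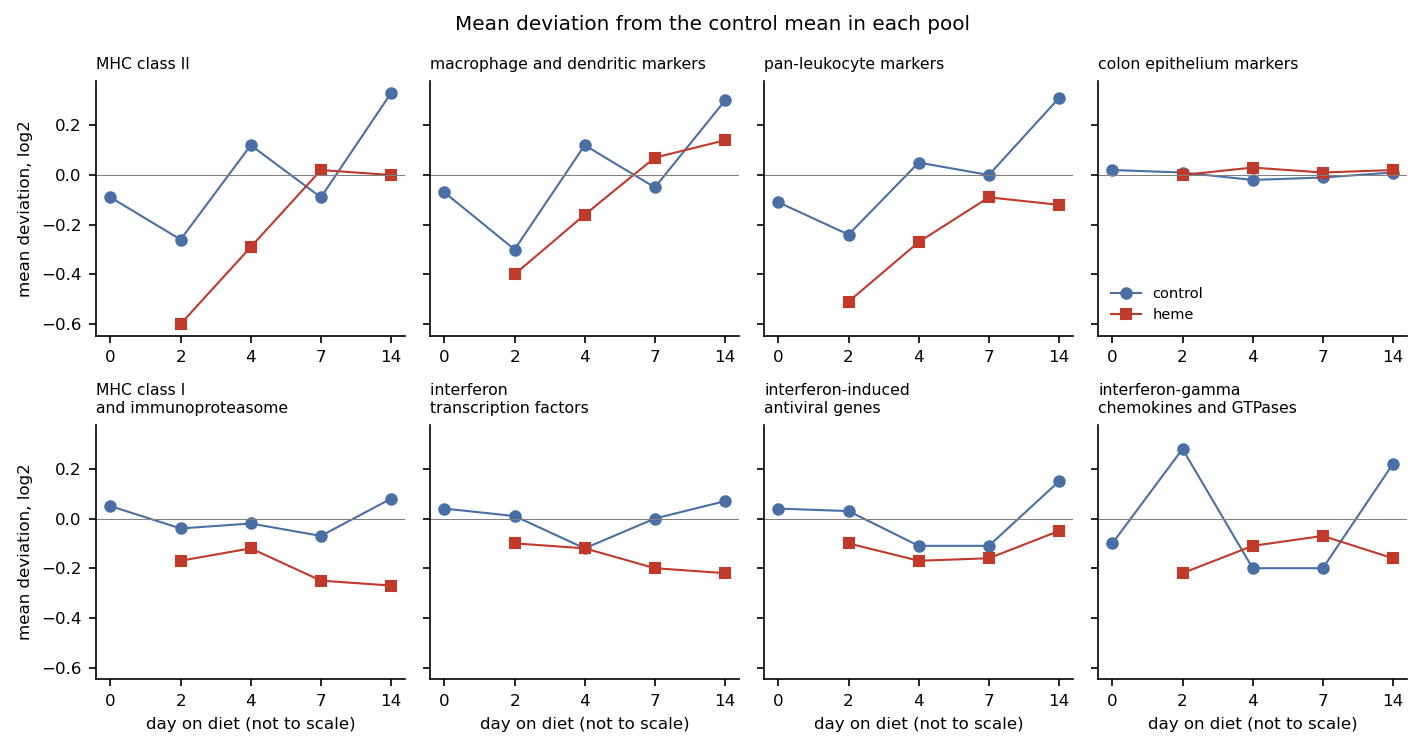
Mean log2 deviation from the control mean (y axis) by day on diet, for the 5 role groups and for 3 marker lists, 1 pool per point (blue control, red heme). The MHC class II and the macrophage and dendritic panels both run from their lowest heme value on day 2 (-0.60 and -0.40) to their highest control value on day 14 (0.33 and 0.30), and the epithelial panel stays between -0.02 and 0.03.

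Class II promoters carry the Y box CTGATTGG, the site of the factor NF-Y, close to the start. Among the members in the promoter table the box was found on either strand for 7 of 29 (24.1%), beside 4.7% of all genes there. The stretches of H2-Aa (chr17:34287847-34287894, minus strand) and H2-Eb1 (chr17:34305785-34305832, plus strand) are shown because they hold it on the coding strand, in capitals, with its first base at -51 and -62 from the start (GRCm38.p6, 5′ to 3′).
H2-Aa: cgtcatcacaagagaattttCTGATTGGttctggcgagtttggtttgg
H2-Eb1: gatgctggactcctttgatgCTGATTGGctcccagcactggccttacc
The same letters occur between Psmb9 and Tap1, on the coding strand of Psmb9 and opposite to that of Tap1, and this site is counted for both genes. These genes start back to back, and the 225 bases between their starts (chr17:34187331-34187555, printed on the strand of Tap1) are shown whole.
Psmb9-Tap1: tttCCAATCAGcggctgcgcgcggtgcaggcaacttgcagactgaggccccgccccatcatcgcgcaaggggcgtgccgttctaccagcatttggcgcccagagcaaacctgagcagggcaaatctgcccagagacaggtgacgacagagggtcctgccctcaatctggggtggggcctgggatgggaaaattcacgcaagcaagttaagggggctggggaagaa
On these bases the capitals mark the box read from the other strand, next to the start of Psmb9. The pair had log2 differences of -0.25 for Psmb9 and -0.12 for Tap1.

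The class II genes and several processing genes are neighbours on chromosome 17. In RefSeq order the stretch from H2-DMa to H2-Eb1 holds 11 protein-coding genes, of which 9 had a value here and 2, H2-DMb2 and H2-DMb1, had none. Those 9 were all below 0 in the diet comparison, from -0.09 for H2-DMa to -0.54 for Psmb8, beside 51% of all genes tested. All but H2-Ob are members whose values are given above, and members mark both ends of the stretch. Psmb8 lay between Tap1 (-0.12) and Tap2 (-0.15), and the values of H2-Ob, H2-Ab1, H2-Aa and H2-Eb1 at the far end ran from -0.36 to -0.28. H2-Ob, a chain of the inhibitor of peptide exchange in B cells, is no member and had -0.35 (adjusted p = 0.211).

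**Figure D5:**
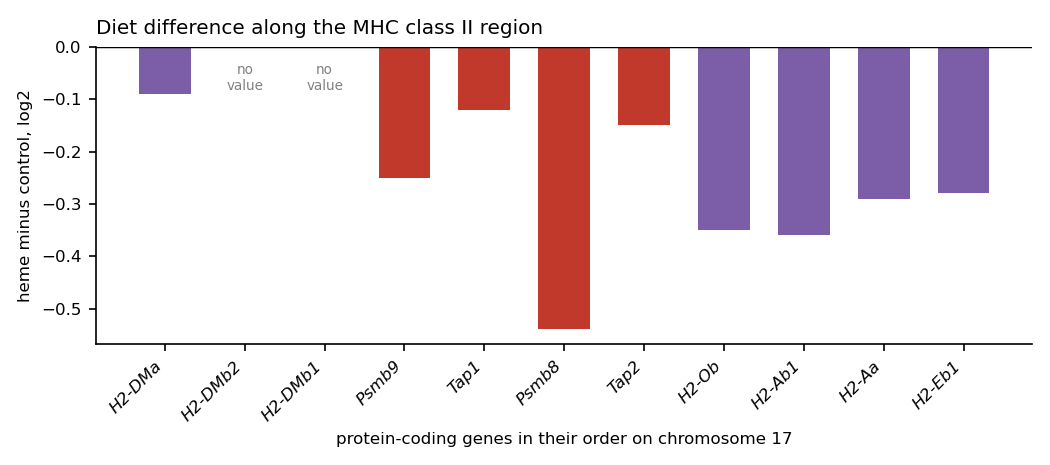
Fitted log2 difference between heme and control pools (y axis, bars from 0) for the 11 protein-coding genes from H2-DMa to H2-Eb1 in their order on chromosome 17 (x axis, order and not distance), with antigen processing genes in red and H2 genes in purple. All 9 bars lie below 0 and that of Psmb8 reaches -0.54; the intervals of the member genes stand in the plot of all members.

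Of 9 other class II genes tested 0 passed, with a median of -0.08. The smallest p belonged to H2-Ob, above, and to Ctss, cathepsin S, the protease that cuts the invariant chain, at -0.27 (SE 0.08, adjusted p = 0.168). Its heme pools stood at 11.28, 11.26, 10.94 and 10.90 and its control pools between 11.32 and 11.40, with no overlap.

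The transcription factors that carry the interferon signal were all below 0. Their median was -0.16 over 5 genes, 4 had an unadjusted p under 0.05, and 0 passed the test. Irf1, the factor that interferon-gamma induces first and that acts on class I and immunoproteasome genes, stood at 9.62, 9.60, 9.40, 9.54 and 9.51 on control and at 9.38, 9.42, 9.26 and 9.13 on heme. The groups overlapped by the control pool of day 4 and the heme pool of the same day (-0.23, SE 0.07, adjusted p = 0.156). A second, dimmer probeset of Irf1 gave -0.02. Irf7, which amplifies the type I response, stood at 8.62, 8.77, 8.61, 8.65 and 8.81 on control and at 8.62, 8.60, 8.46 and 8.19 on heme. The heme pool of day 2 was within the control range, that of day 4 at its lower edge, and those of days 7 and 14 below it (-0.22, adjusted p = 0.253). Irf9, which binds the ISRE together with STAT2, stood at 7.41, 7.25, 7.20, 7.25 and 7.34 on control and at 7.24, 7.12, 7.04 and 7.14 on heme. The heme pool of day 2 was within the control range (-0.16, adjusted p = 0.229). Irf8, a factor of macrophages and dendritic cells, was at -0.12 (adjusted p = 0.27), and Stat2 at -0.05 (adjusted p = 0.699). The groups of Irf8 met at 7.87 to rounding and did not overlap before it.

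The GAS motif stands close to the start of Irf1 too, and its stretch is printed to be set beside that of Psmb8 (GRCm38.p6, chr11:53769904-53769952, plus strand, motif in capitals from -90).
Irf1: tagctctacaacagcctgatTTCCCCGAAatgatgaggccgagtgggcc

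Upstream of these factors stand the ligands, receptors and kinases. Of 9 receptor and ligand genes tested 0 passed, with a median of -0.02, and Ifng and Ifnb1 were below the filter on dim genes. Il15, a cytokine that sustains lymphocytes of the epithelium, stood at 8.35, 8.29, 8.10, 8.21 and 8.13 on control and at 8.11, 7.97, 7.45 and 7.03 on heme. Its day 2 pool overlapped the control pools and its later pools lay below them (-0.58, SE 0.19, adjusted p = 0.205), a larger difference than that of Psmb8 with a larger error. Ifngr1, a chain of the interferon-gamma receptor, was at -0.10 (adjusted p = 0.233). Of 14 signalling and feedback genes 0 passed, with a median of -0.07. The smallest p belonged to the receptor kinase Jak2 (-0.16, adjusted p = 0.162) and to Ddx58, the RNA sensor RIG-I (-0.22, adjusted p = 0.169).

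The antiviral genes as a group stood nearest to 0, and a pair of them stood out. Their median was -0.06 over 9 genes tested of 11, with 7 below 0, 2 at an unadjusted p under 0.05 and 0 called. Ifit1, which binds foreign RNA ends and blocks their translation, stood at 8.04, 8.34, 7.88, 7.90 and 8.09 on control and at 7.86, 7.74, 7.47 and 7.61 on heme. All heme pools were below all control pools, by little on day 2 (-0.38, SE 0.10, adjusted p = 0.156). Zbp1, a sensor of nucleic acid in the Z form that triggers cell death, stood at 7.26, 7.21, 6.89, 6.88 and 7.21 on control and at 6.78, 6.69, 6.68 and 6.88 on heme. The groups met at 6.88 to rounding and did not overlap before it (-0.33, SE 0.09, adjusted p = 0.156).

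Other antiviral genes differed by less. Oas1a, a synthetase that activates RNase L, stood at 7.98, 7.90, 8.04, 7.96 and 8.06 on control and at 7.89, 7.80, 7.73 and 8.02 on heme, with overlap on day 14 (-0.13, adjusted p = 0.305). Ifit2, a relative of Ifit1, stood at 5.14, 5.15, 4.98, 5.18 and 5.97 on control and at 5.03, 4.94, 5.31 and 5.14 on heme. The control pool of day 14 stood apart from the other 8, and the difference was -0.18 with it (adjusted p = 0.598) and -0.01 without it. Ifit3, of the same family, was at -0.04 (adjusted p = 0.742). Rsad2, or viperin, was at -0.06 (adjusted p = 0.598) and Oasl2 at -0.05 (adjusted p = 0.776). Usp18, which removes ISG15 from proteins and dampens the receptor, was at 0.06 (adjusted p = 0.774), and Bst2, the tetherin that holds virions at the membrane, at 0.04 (adjusted p = 0.708). The 95% intervals of Ifit3, Rsad2, Usp18 and Bst2 reached from -0.17 to 0.09, from -0.18 to 0.07, from -0.16 to 0.28 and from -0.09 to 0.18.

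The ISRE core (GAAA, any 2 bases, GAAA) was found near the start on either strand for 13 of the 29 members in the promoter table (44.8%), beside 3.99% of all genes there. The 10 tested members with it had a median log2 difference of -0.09 and the 15 without it one of -0.19, but the order was not the same in every role group. With and without the core the medians were -0.06 and -0.11 for the antiviral genes and -0.05 and -0.19 for the transcription factors, and they were -0.26 and -0.20 for class I and -0.18 and 0.12 for the interferon-gamma group. Some of these rest on 1 gene, and no difference was tested. Stretches of B2m, Ifit1, Gbp3, Irgm1 and Bst2 are shown because their differences range from -0.38 to 0.04 although each holds the core (GRCm38.p6, 5′ to 3′ on the coding strand, matches in capitals, the overlapping ones run together). They lie at chr2:122147528-122147577 (plus), chr19:34640765-34640833 (plus), chr3:142559979-142560034 (plus), chr11:48871421-48871470 (minus) and chr8:71537567-71537622 (minus).
B2m: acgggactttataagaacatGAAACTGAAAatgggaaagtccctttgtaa
Ifit1: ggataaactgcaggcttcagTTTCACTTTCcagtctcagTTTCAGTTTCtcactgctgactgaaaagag
Gbp3: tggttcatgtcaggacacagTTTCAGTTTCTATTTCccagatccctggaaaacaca
Irgm1: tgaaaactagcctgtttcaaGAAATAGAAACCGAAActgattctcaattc
Bst2: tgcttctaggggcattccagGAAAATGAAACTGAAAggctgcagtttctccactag
In Ifit1 and Gbp3 the core is read from the opposite strand (TTTC, any 2 bases, TTTC). Ifit1, Gbp3, Irgm1 and Bst2 each hold 2 matches, and B2m holds 1.

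The interferon-gamma GTPases were lower by values and the chemokines were not. Gbp3, a guanylate-binding protein that attacks the vacuoles of microbes, stood at 6.48, 6.58, 6.47, 6.47 and 6.79 on control and at 6.28, 6.25, 6.47 and 6.20 on heme. The heme pool of day 7 met the lowest control pools (-0.26, SE 0.08, adjusted p = 0.192). Irgm1, a regulator of the immunity-related GTPases, stood at 8.33, 8.22, 8.10, 8.18 and 8.30 on control and at 8.05, 8.06, 8.18 and 7.90 on heme, with overlap on day 7 alone (-0.18, adjusted p = 0.228). Iigp1, an effector GTPase of the same family, stood at 5.29, 5.71, 5.18, 5.29 and 6.08 on control and at 5.02, 4.92, 5.29 and 5.22 on heme. Its control pools of days 2 and 14 were high and the others lay within the range of the heme pools or near it (-0.40, adjusted p = 0.289). The shared probesets of Gbp2, Igtp and Isg15 were not tested, since their signal cannot be assigned to a single gene. That of Gbp2 and Gbp2b stood at 8.13, 8.27, 7.47, 7.65 and 8.09 on control. On heme it stood at 7.09, 7.43, 7.24 and 6.55, with no overlap. Those of Igtp with Irgm2 and of Isg15 with Gm9706 overlapped between the diets.

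Cxcl9 and Cxcl10 draw activated T cells through the receptor CXCR3. Cxcl9 stood at 5.41, 6.05, 5.56, 5.28 and 5.84 on control and at 5.54, 5.63, 5.82 and 5.97 on heme, with full overlap (0.12, 95% interval -0.23 to 0.46, adjusted p = 0.696). Cxcl10 stood at 5.84, 6.68, 5.50, 5.59 and 5.92 on control and at 5.84, 6.43, 5.73 and 5.73 on heme (0.03, 95% interval -0.49 to 0.55, adjusted p = 0.961). The widest spread of any member was that of Cxcl10 among the control pools, with an SD of 0.46 (n = 5), and its sign turned when single pools were left out. T and NK cell markers, of which 9 were tested, had mean levels of 5.59 to 5.68 on control and 5.45 to 5.60 on heme, with a median of -0.08, 0 called, and Klrk1 and Ncr1 below the filter.

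A further list of interferon-induced genes had the same lean without a call. Of 27 tested, 23 were below 0, beside 51% of all genes, with a median of -0.11. At an unadjusted p under 0.05, 11 were lower, beside 8.65% of all genes. This list too was chosen with earlier results of these data known, so it is not independent of the members. The smallest p belonged to Parp9 (-0.23, adjusted p = 0.121) and Parp14 (-0.25, adjusted p = 0.148), ADP-ribosylating relatives that act in interferon signalling. The lowest value, chosen after it was seen, was that of Ido1, the tryptophan-degrading enzyme that interferon-gamma induces, at -0.64 (SE 0.20, adjusted p = 0.196). Ido1 stood at 8.51, 8.31, 7.94, 8.28 and 8.16 on control and at 8.02, 8.02, 7.28 and 7.07 on heme, so its heme pools of days 7 and 14 lay below all others. Over all 6 pathway lists 0 of 81 genes tested passed.

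The study's question of early against late was put to the members by comparing the diet difference on days 7 and 14 with that on days 2 and 4. Of the 33 members 0 passed, beside 0% of all genes (limma, adjusted p under 0.05). At an unadjusted p under 0.05 there were 3, B2m, Tapbp and Psmb8 (9.09%), beside 6.62% of all genes in either direction and 4.57% lower late, and all 3 were lower late. Their number was 7 without the control pool of day 2, 6 without the control pool of day 7, 5 without the heme pool of day 7 and 2 to 4 without any other pool. The count over all genes in these refits is not given here, so no stronger late response of the members is read from them. The same-day difference of Psmb8 was -0.37, -0.28, -0.64 and -0.81 on days 2, 4, 7 and 14, and its late-minus-early difference -0.40 (SE 0.12, adjusted p = 0.658). That of Tapbp was -0.05, -0.08, -0.30 and -0.33 (late minus early -0.25, SE 0.07, adjusted p = 0.61). That of B2m was -0.20, -0.12, -0.26 and -0.48 (late minus early -0.21, SE 0.09, adjusted p = 0.746). In these 3 genes the heme pool was below the control pool on day 2 and furthest below it on day 14, when the smooth muscle markers of the heme pool stood at -0.86.

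The role groups had late-minus-early medians of both signs. The median late-minus-early difference was -0.19 for MHC class I and the immunoproteasome, with 7 of 8 below 0, and -0.16 for the transcription factors, with 5 of 5 below 0. It was -0.01 for the antiviral genes, -0.04 for the interferon-gamma chemokines and GTPases, and 0.31 for MHC class II, with 5 of 6 above 0. Over all genes tested it was -0.03, with 57.8% below 0. Among the members named for the size of this difference were Cd74 (0.39, SE 0.33, adjusted p = 0.805), H2-Aa (0.41, SE 0.39, adjusted p = 0.813), Irf7 (-0.33, SE 0.14, adjusted p = 0.759) and Cxcl9 (0.55, SE 0.30, adjusted p = 0.774). The macrophage and dendritic markers had a median late-minus-early difference of 0.15. The contrast between class I and class II was not itself tested.

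On the control diet alone the members showed no slope that passed the test. Over the 5 control pools, on log2 of day plus 1, 0 of 33 passed (0% of all genes), and 0 had an unadjusted p under 0.05, beside 7.18% of all genes. The median slope was 0.01 per unit for the 33, 0.13 for MHC class II with 6 of 6 above 0, and -0.01 to 0.03 for the other role groups.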

How the data were processed

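The values are log2 expression values per probeset of 9 arrays, deposited by the authors and made with RMA per the submitters' processing notes (version not given in the sources used here). This method brings the arrays to 1 distribution, so changes are relative to the bulk of genes. Array medians lay between 5.89 and 5.96. Arrays carry no read depth, and the number of pools sets the precision.

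Of 35556 probesets, 21789 named 1 gene in the platform annotation, 1621 named several and were left out of the tests, and 12146 were unnamed here. RefSeq, matched by Entrez ID for 21698, changed 0 symbols. For the 999 genes with several probesets the one with the highest mean was kept, and genes whose mean reached the 25th percentile (4.716 log2) were tested. Models were fitted with limma 3.58.1 (lmFit, eBayes with an intensity trend) in R 4.3.3, with Benjamini-Hochberg adjustment across the 14953 genes tested and an adjusted p under 0.05 as the call, and were tested on simulated data. The 3 comparisons were diet (4 heme against 5 control pools), late minus early (days 7 and 14 against days 2 and 4, 8 pools) and over the control pools the slope on log2(day + 1). P-values rest on how pools of different days vary, since animals were not measured singly.

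The members, 6 pathway lists (102 genes, 89 matched, 81 tested) and 9 marker lists (89 genes, 85 matched) were chosen with earlier results of these data known. Values by pool are given for called members and, in each role group, for the 3 with the smallest unadjusted p and the 2 with the largest late-minus-early difference, 19 genes in all, and for Psmb5, Psmb6 and Psmb7. Of each pathway list the 2 genes with the smallest p are named. The pool values of Psmb9, Cxcl10, Il15, Ctss and Ido1 and those of the shared probeset of Gbp2 were added after they were seen. Same-numbered days of both diets share a day in the labels, not animals, and their deviations correlated with r = 0.658, 3.55e-05, 0.3 and 0.204 on days 2, 4, 7 and 14. Results whose call changes when the day enters as a block are given with that fit too. Alternatives were that block, no filter, a filter at the 40th percentile, no intensity trend, the mean over probesets, arrays centred on their median, both pools of day 2 left out, each pool left out and, chosen after seeing the data, both pools of day 7 left out. Promoters are those of RefSeq (GRCm38.p6).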

Additional observations from a re-analysis of the deposited data

Results flagged for a closer look

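Among 66 sets of values, 1 for each of the 33 members tested in each diet, 3 held a pool that stood apart from the others of its diet by Dixon's criterion at the 95% level. Chance gives about 1 in 20, or 3.3 sets, so this number is what chance gives. Ifit2 was 5.97 log2 in the control pool of day 14, with the nearest control pool at 5.18. Bst2 was 7.23 in the heme pool of day 14, with the nearest heme pool at 7.08. Cxcl10 was 6.43 in the heme pool of day 4, with the nearest heme pool at 5.84.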

How the results depend on the processing

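Between the diets 1 member (Psmb8) was called in the analysis as reported, and 0 with the day as a replicate block or without both pools of day 7, and 0 to 2 when a single pool was left out. The 2 were B2m and Psmb8, without the heme pool of day 4. The cause was not tested. Psmb8 was called under 11 of 17 alternatives, with adjusted p-values of 0.0165 to 0.0629 when a single pool was left out. The count of all genes called moved with it, from 89 higher and 11 lower to 69 and 8 with the block, 0 and 0 without both pools of day 7, 30 and 0 without the control pool of day 4 and 172 and 79 without the heme pool of day 2. Late minus early and the control slope had 0 members and 0 genes called under each alternative run. Of 33 members, 4 changed sign under some alternative, all with differences near 0: Ciita (-0.01 without both pools of day 7, and -0.01 to 0.11 when a single pool was left out), Ifit3 (-0.07 to 0.01), Usp18 (down to -0.04) and Cxcl10 (-0.14 to 0.22). The median over all members stayed between -0.20 and -0.14, and that of MHC class I between -0.22 and -0.16.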
